A study of Mus musculus with 3 samples.

Results

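The cells described here carried cluster code 5 in the deposited count table of the D10 culture, a code matched to muscle through the marker genes of the study's clusters. They were chosen by that code alone and made up 7.11% (6.55 to 7.70) of the 7821 culture cells, beside 7265 cells of other codes, out of 15827 cells in 3 libraries. By the clustering described below they numbered 319, 94, 77 and 66 in 4 groups. The culture was derived from mouse embryonic stem cells (mESCs) carrying the ScxGFP reporter, kept before differentiation with LIF on mouse embryonic fibroblast feeders. Embryoid bodies were formed in 500 nM LDN-193189, a BMP receptor inhibitor, from D0, 5 μM CHIR, an activator of WNT signaling, was added from D2 to D6, and the cells then received 10 ng/mL TGFβ1, 100 nM of the hedgehog agonist SAG and 10 ng/mL FGF2 until D10. The comparison libraries were E14.5 mouse tail, whose cells share the cluster codes of the culture, and D6 paraxial mesoderm (D6 PM) of the same differentiation, whose codes are numbered separately. All 3 suspensions were depleted of dead cells by Annexin V before capture, and each library was 1 sample, so that levels could be described but not tested between conditions.

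Culture cells received their code by projection onto clusters of the tail, so that the name muscle describes the tail cells of code 5. The study's table of cluster composition lists these cell numbers under a cluster that the study names skin, and the name muscle therefore rests on the genes of the tail cells and not on the number. For the culture cells of that cluster, which expressed genes such as *Nanog*, the study proposes that they may be a small pluripotent remainder. The tail cells were themselves mixed: 42 of 121 had a *Myog* UMI, and their neural genes summed to 1768 CPM (UMIs scaled to the same total, as below) against 375 CPM in culture code 5, with *Dcx*, a microtubule protein of young neurons, at 59.1 CPM against 0.299 CPM. In skeletal muscle, PAX7 and MYF5 mark progenitors, MYOD1 and then MYOG commit them to differentiate, and sarcomere genes such as *Ttn* and *Actc1* follow as myoblasts leave the cell cycle and fuse. Pluripotent cells instead depend on *Pou5f1*, with naive cells of the early epiblast adding *Zfp42*, *Klf2* and *Esrrb*, and postimplantation epiblast replacing these by *Fgf5*, *Pou3f1* and *Dnmt3b*. The culture cells of code 5 held both kinds of marker.

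Code 5 was the most deeply sampled large cluster of the culture, with a median of 12508 UMIs per cell (790 to 20869), against 5622 over the library, and 4288 genes per cell. Thinned to 3000 UMIs per cell, the median was 1763 genes, against 1732 in code 3 and 1746 in code 1. The share of mitochondrial transcripts had a median of 1.63%, and 24 of the cells (4.32%) were called doublets by Scrublet, which called 116 (1.48%) over the culture. No barcode of code 5 was shared with the tail, 1 was shared with D6 PM, and the whole culture shared 4 and 10. Levels below are in CPM, the UMIs of a gene summed over a group of cells, divided by all UMIs of the same cells and scaled to the same total in every group. Ranges in parentheses are exact 95% intervals that cover counting error only. They are Poisson intervals where a level is given, Clopper-Pearson intervals where a share is given, and conditional binomial intervals for ratios. The cells of 1 library are not replicates, and the clusters were made from these same genes, so that every contrast between clusters is a description without a test.

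Of the 4 markers that name these cells, *Pou5f1* was by far the most abundant in code 5. *Pou5f1* was at 351.5 CPM in code 5 (337 to 366), 545 CPM in code 3 (532 to 559), 346 CPM in code 6 (318 to 375) and 6.57 CPM in code 1, the largest cluster. Code 3 was therefore highest and codes 5 and 6 overlapped within their intervals. *Ttn*, the giant spring protein of the sarcomere, was at 130.5 CPM in code 5 and 26.8 CPM in code 3, and below 10 CPM in the other clusters of 40 or more cells. *Myog* was at 36.8 CPM (32.4 to 41.7) in code 5, where 246 of the 250 *Myog* UMIs of the culture lay. *T*, the primitive streak and notochord factor brachyury, was at 9.58 CPM (7.38 to 12.2), from 64 UMIs. Over all other culture cells the ratios were 2.27 (2.17 to 2.38) for *Pou5f1*, 430 (166 to 1591) for *Myog*, 18.0 (15.9 to 20.5) for *Ttn* and 14.0 (9.01 to 22.1) for *T*. As means over cells of CPM they were 2.69, 1186, 52.6 and 12.2 in the same order.

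**Figure D1:**
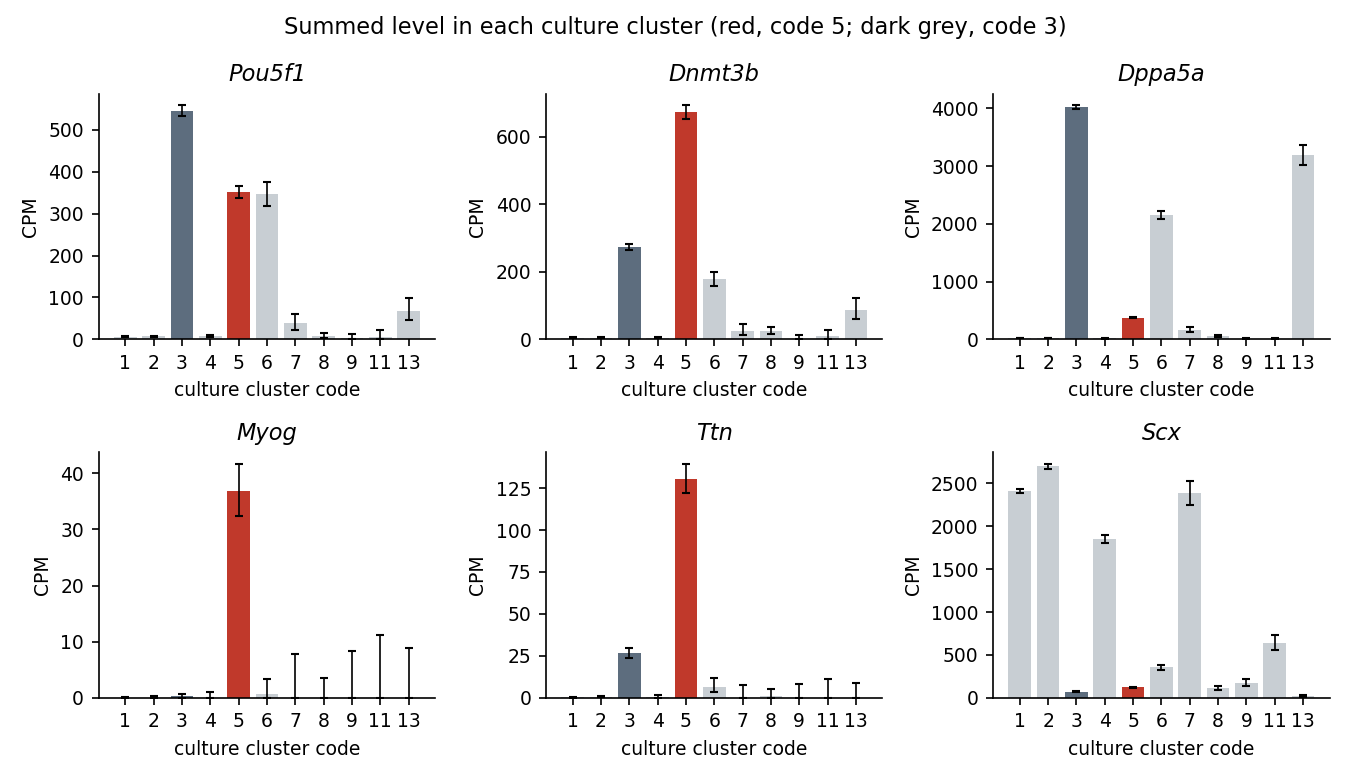
Level of 6 genes in CPM (linear axes from 0) in each culture cluster of 40 or more cells, with exact 95% Poisson intervals for counting error. *Pou5f1* was shared by codes 3, 5 and 6, *Dnmt3b* was highest in code 5 and *Dppa5a* in code 3, *Myog* and *Ttn* were highest in code 5, and *Scx* was at 123 CPM in code 5 against 2410 CPM in code 1.

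The muscle transcripts lay in few cells. A *Myog* UMI was found in 29 cells of code 5 (5.22%, 3.52 to 7.41), and these held all 246 *Myog* UMIs by construction. They also held all 81 UMIs of *Myod1*, all 176 of *Myl1* and all 220 of *Tnni1*, which encode a myogenic regulator, a fast myosin light chain and slow troponin I. Of the *Ttn* UMIs of code 5 they held 98.4%, of *Actc1* 98.8%, of *Tnnc1* 98.9% and of embryonic myosin *Myh3* 94.2%. In the 527 other cells, *Ttn* was lower than in the rest of the culture, at a ratio of 0.298, while the ratio was 2.35 for *Pou5f1* and 14.45 for *T*. That rest includes code 3, with 314 *Ttn* UMIs (26.8 CPM), whereas codes 1, 2 and 4 were at 0.301, 0.654 and 0.301 CPM. The ratio of 0.298 therefore does not place the 527 cells below each other cluster. Leaving the *Myog* cells out was an alternative chosen after seeing the data. The ratio of *Ttn* over the rest of the culture thus rested on 29 cells. Thinned to 3000 UMIs, 4.90% (3.22 to 7.09) of code 5 cells had a UMI of any of *Pax7*, *Myf5*, *Myod1*, *Myog* and *Myf6*, against 0.0925% in code 3 and 0.0385% in code 1 (unthinned 6.12%, 0.551% and 0.0337%). Median depths before thinning were 12508, 10370 and 4918 UMIs, and 25, 7 and 369 cells were too shallow to be kept.

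The same cells had few pluripotency transcripts. The 29 cells held 0 UMIs of *Pou5f1*, *Dnmt3b*, *Utf1* and *Pou3f1* among 213052 UMIs in all, where 3 counts would be 14.1 CPM. Their summed core pluripotency list was at 14.1 CPM, with 2 UMIs of *Sall4* and 1 of *L1td1*, against 2232 CPM in the other code 5 cells, and the naive list was at 117 CPM against 471 CPM. Of the 26 code 5 cells with 10 or more UMIs over 6 muscle genes (*Myog*, *Myod1*, *Actc1*, *Ttn*, *Tnnc1*, *Myl1*), 0 had a UMI of these 4 pluripotency genes. None of the 29 cells was called a doublet (0 to 11.9%), and their median depth was 6763 UMIs, below the 12863 of the other code 5 cells. Cells rich in muscle transcripts were thus without these pluripotency transcripts. Below that number the separation was not complete, since 21 of the 319 cells of group 1, all with a pluripotency UMI, also had a muscle UMI.

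**Figure D2:**
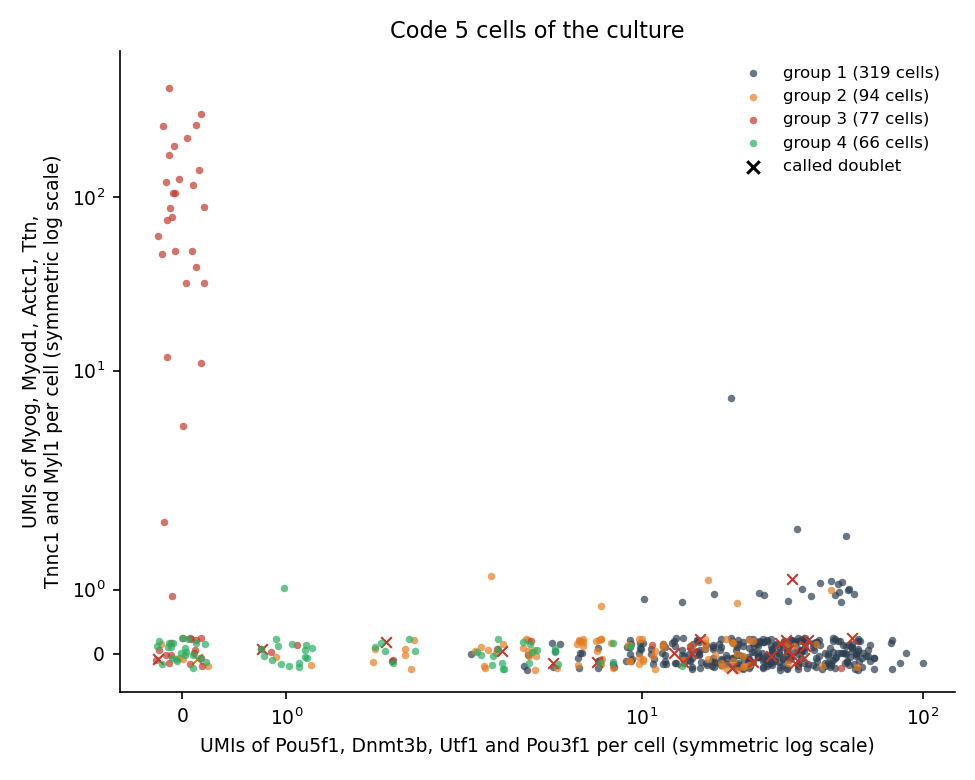
The code 5 cells of the culture, each point a cell, by UMIs of 4 pluripotency genes (x) and of 6 muscle genes (y), on symmetric log scales with a small random offset; crosses are called doublets. The 26 cells with 10 or more muscle UMIs all sit at 0 pluripotency UMIs, and all 319 cells of group 1 have at least 2.

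Within code 5, Leiden clustering gave 4 groups, which are called here by number and leading genes. Group 1 had 319 cells (57.4%), led by *Sycp3*, a synaptonemal complex gene, *Utf1*, a chromatin factor of pluripotent cells, and *Tdgf1*, a Nodal co-receptor. Group 2 had 94 cells (16.9%), led by *Fgfbp1*, *Cpm*, *Krt8* and *Stra8*. Group 3 had 77 cells (13.8%), among them all 29 with a *Myog* UMI, and was led by *Tnni2*, *Tnnc1*, *Myog* and *Actc1*. Group 4 had 66 cells (11.9%), led by *Nkx6-2*, a homeobox gene of the neural tube, *Crabp1*, a retinoic acid binding protein, and *Fabp7*, a fatty acid binding protein of neural progenitors. Median depths were 13478, 11758, 7455 and 9699 UMIs. Called doublets numbered 0, 1, 23 and 0, so that 23 of the 24 lay in group 3, where they made up 19.97 to 41.4% of cells by their interval.

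Group 3 was itself mixed. Besides the 29 cells with a *Myog* UMI, it held 48 cells with 0 *Myog* or *Actc1* UMIs, and all 23 of its called doublets were among these 48 (33.3 to 62.8%). Summed over these 48 cells, transcripts of both tendon and pluripotent cells were counted, which does not place them in the same cell: *Scx*, the tendon regulator and reporter gene of the line, was at 493 CPM (434 to 557), *Col1a1* at 840 CPM (763 to 924), *Pou5f1* at 229 CPM (189 to 274) and *Dnmt3b* at 504 CPM (445 to 570). Their median depth was 12974 UMIs. At resolution 1 they formed a group of 49 cells with 1 *Myog* cell and the 23 called doublets, apart from a group of 28 cells that all had a *Myog* UMI and no called doublet. Without called doublets, group 3 kept 32 of the 258 *Dnmt3b* UMIs, 19 of the 117 *Pou5f1* UMIs and 245 of the 442 *Scx* UMIs, of which 190 lay in the *Myog* cells. The part of doublets in the cells of group 3 that were not called was not tested.

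**Figure D3:**
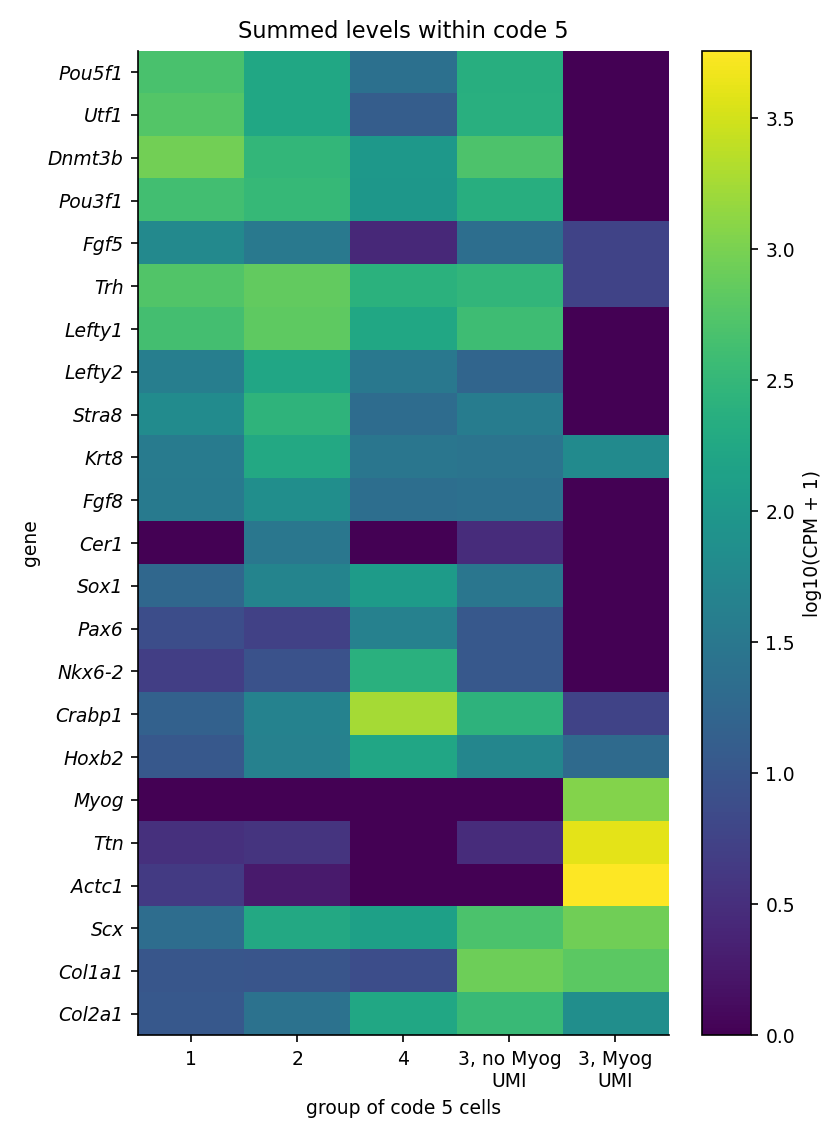
Summed level of 23 genes, as log10(CPM + 1), in groups 1, 2 and 4 of code 5 and in group 3 split by whether a cell has a *Myog* UMI. *Pou5f1* is at 477 CPM in group 1 and has 0 UMIs in the *Myog* cells, *Crabp1* is highest in group 4 at 1815 CPM, and *Scx* and *Col1a1* are higher in both columns of group 3 than in the other groups.

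Against all other culture cells, code 5 was set apart by epiblast genes, growth and DNA replication genes on the high side and by tendon matrix on the low side. Of 9419 genes that were detected in 10% or more of the cells on one side, 751 (7.97%) were at least 2-fold higher in code 5 and 1166 (12.4%) at least 2-fold lower, with a median ratio of 1.04. A gene can pass this filter through 1 side only, where it is often the higher, so that counts over a list are partly set by the filter and are read beside sums over all list members, given here for the main lists. In code 5, the rest of the culture and code 3, these sums were 1567, 394 and 969 CPM for epiblast genes, 460.0, 1487 and 4982 CPM for naive genes, 2161, 920 and 3249 CPM for core pluripotency genes, and 649, 10534 and 288 CPM for tendon genes. Of 11 postimplantation epiblast genes, 7 were at least 2-fold higher and 0 lower, with a median ratio of 3.06. *Dnmt3b*, a de novo DNA methyltransferase, was at 674 CPM in code 5 and 79.4 CPM in the rest (8.49-fold, 8.12 to 8.87). *Pou3f1*, a POU factor of the epiblast, was at 345 CPM and 46.3 CPM (7.44-fold, 7.02 to 7.90). *Trh*, the gene of thyrotropin-releasing hormone, was at 513 CPM and 17.6 CPM, and code 5 held 80.7% of all its UMIs in the culture. Of 10 core pluripotency genes 6 were at least 2-fold higher and 0 lower (median ratio 2.19), and all 6 naive genes that passed the detection filter were at least 2-fold lower (median ratio 0.235). That rest includes code 3. In codes 1, 2 and 4 the naive list summed to 127, 109 and 145 CPM, below its sum in code 5.

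Other gene groups also differed between code 5 and the rest of the culture. Of 7 detected Nodal pathway genes 5 were at least 2-fold higher, among them *Lefty1*, a secreted Nodal inhibitor, at 433 CPM in code 5 and 80.0 CPM in the rest. Of 6 epithelial genes 4 were at least 2-fold higher, including *Epcam* at 669 CPM against 260 CPM and E-cadherin (*Cdh1*) at 98.2 CPM against 37.7 CPM. Over all members, the epithelial list summed to 1103 CPM in code 5 and 629.5 CPM in the rest, and the Nodal list to 923 and 317.8 CPM. All 14 detected tendon genes were at least 2-fold lower, with a median ratio of 0.0620: *Scx* was at 123 CPM against 1670 CPM and *Col1a1*, the main collagen of tendon, at 93.1 CPM against 1651 CPM. Of 19 genes of purine, thymidylate and serine synthesis 14 were at least 2-fold higher (median ratio 2.20), led by values such as 316 CPM against 105 CPM for *Gart*. Of 16 nucleolar genes 10 were at least 2-fold higher, with *Ncl* at 3824 CPM against 1290 CPM, and of 42 S phase genes 24 were at least 2-fold higher. Of 52 G2M genes 0 were past 2-fold in either direction (median ratio 1.03), and of 10 p53 target genes 4 were at least 2-fold lower, among them *Cdkn1a*, the inhibitor p21, at 137 CPM against 503 CPM.

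Code 3 was the cluster most like code 5, and the growth genes did not separate them. Across 24738 genes the Pearson correlation of log2(CPM + 1) was 0.966 with code 3 and 0.953 with code 6, the next in the culture. The points are genes of summed profiles from 1 library, so that these values are a description. Of 9522 genes, 590 (6.2%) were at least 2-fold higher in code 5 than in code 3 and 694 (7.29%) at least 2-fold lower. None of 19 purine, thymidylate and serine genes, 16 nucleolar genes, 16 chaperones and 52 G2M genes was past 2-fold, and 1 of 42 S phase genes was. Nor did Nodal and epithelial genes set code 5 above code 3: 0 of 7 Nodal pathway genes were at least 2-fold higher and 2 lower, and 0 of 6 epithelial genes were past 2-fold. Among genes with 100 or more UMIs in the pair and 50 CPM or more in code 5, *Actc1*, *Tnnc1* and *Crabp1* had the largest ratios over code 3. Over all members, retinoic acid genes summed to 575 CPM in code 5 and 219 CPM in code 3, and Hox genes to 121 and 29.2 CPM. Both sums were highest in group 4, at 2702 and 461 CPM, against 302 and 46.6 CPM in group 1. Sarcomere genes summed to 1866 CPM in code 5 and 871 CPM in code 3, and tendon genes to 649 and 288 CPM. The sarcomere and tendon part lay in group 3, described above with its called doublets: the summed tendon list was at 4720 CPM there and at 93.0, 311 and 282 CPM in groups 1, 2 and 4, against 288 CPM in code 3, and the sarcomere list at 12399, 538, 813 and 480 CPM in groups 3, 1, 2 and 4, against 871 CPM. The sarcomere list was at 1853 CPM in the rest of the culture, and at 2500, 2108 and 1692 CPM in codes 1, 2 and 4. Its sum in code 5 was thus close to that of the rest.

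Pluripotency genes differed from code 3 in both directions. All 12 detected naive genes were at least 2-fold lower in code 5, with a median ratio of 0.0666. *Dppa5a*, an RNA-binding protein of naive stem cells, was at 376 CPM in code 5 and 4021 CPM in code 3 (0.0934, 0.0897 to 0.0973). *Klf2*, a Krüppel-like factor of the naive network, was at 45.2 CPM and 415 CPM, *Zfp42*, the marker REX1, at 13.6 CPM and a ratio of 0.136, and *Esrrb*, an orphan nuclear receptor, at 0.449 CPM from 3 UMIs and 29.5 CPM. Of 11 epiblast genes 5 were at least 2-fold higher in code 5 and 0 lower (median ratio 1.35). These 5 were *Dnmt3b* at 2.47-fold (2.36 to 2.58), *Pou3f1* at 2.15-fold (2.02 to 2.28), the growth factor *Fgf5* at 3.06-fold (2.53 to 3.72), *Sox3* at 4.22-fold (3.37 to 5.32) and *Fgf15* at 7.41-fold (5.24 to 10.7). *Trh* was 9.16-fold higher than in code 3 (8.43 to 9.98), and *Fgf8*, a growth factor of the primitive streak, 9.62-fold higher (7.001 to 13.5).

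Core pluripotency genes did not move as a block: of 11, 1 was at least 2-fold higher in code 5 and 4 at least 2-fold lower. *Lin28a*, which blocks maturation of let-7, was at 154 CPM against 63.4 CPM, while *Sox2* was at 160.0 CPM against 373 CPM and *Dppa4* at 34.6 CPM against 144 CPM. Writers and erasers of DNA methylation were split as well, with 2 of 8 at least 2-fold higher and 3 lower. *Dnmt3l*, the cofactor of the de novo enzymes, was at 7.48 CPM against 176 CPM and the dioxygenase *Tet1* at 137 CPM against 335 CPM, while *Tet3* was at 29.0 CPM against 11.2 CPM. Of 6 detected germ cell genes 4 were at least 2-fold lower, with *Dppa3*, also known as Stella, at 5.09 CPM against 135 CPM. BMP targets were higher in code 5 for 3 of 4, the helix-loop-helix inhibitors *Id1* (32.5 against 10.7 CPM), *Id2* (46.7 against 10.8 CPM) and *Id3* (129 against 23.5 CPM), and 2 of 4 hedgehog genes were higher, *Smo* at 2.46-fold and *Gli3* at 3.11-fold.

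Some muscle genes went the other way, and the 14 regulators together summed to 151 CPM in code 5 and 186 CPM in code 3. *Mymx*, the fusion peptide myomixer, was at 19.0 CPM in code 5 and 103 CPM in code 3, and *Mylpf*, a fast myosin light chain, at 139 CPM and 244 CPM. In code 2 of D6 PM, whose *Pou5f1* was at 460 CPM, *Mylpf* was at 1139 CPM and *Mymx* at 75.5 CPM. These genes were therefore also counted in *Pou5f1*-rich cells with *Myog* at or below 0.903 CPM.

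Per cell and at equal depth, the shares showed the same order. With 3000 UMIs per cell, a *Dnmt3b* UMI was found in 67.2% of code 5 cells (63.1 to 71.2), 38.3% of code 3 cells and 1.002% of code 1 cells, a tendon cluster that should lack it. A *Pou5f1* UMI was found in 53.9% (49.5 to 58.2), 78.1% and 1.43%, and a *Dppa5a* UMI in 43.7%, 97.5% and 3.66%. Of these, code 5 was above code 3 for *Dnmt3b* and below it for *Pou5f1* and *Dppa5a*, and both were far above code 1. *Trh* was found in 41.2%, 10.5% and 0.385%, and *Zfp42* in 4.14%, 24.5% and 0.154%. Unthinned, the shares of code 5, code 3 and code 1 were 80.4%, 61.9% and 1.82% for *Dnmt3b*, 71.2%, 96.1% and 2.80% for *Pou5f1*, and 68.9%, 98.5% and 5.87% for *Dppa5a*. They were 52.7%, 21.9% and 0.675% for *Trh* and 13.5%, 57.9% and 0.270% for *Zfp42*. *Scx* was found in 12.1% of code 5 cells and 10.3% of code 3 cells against 91.3% of code 1 cells (unthinned 30.4%, 21.6% and 92.9%). The share over all of code 5 had an interval of 9.41 to 15.1%, which holds the share of code 3, and is not read as a difference.

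Group 1 carried most of the epiblast pattern, and the contrast with code 3 in naive and epiblast genes did not need the other groups. All 319 of its cells had a UMI of *Pou5f1*, *Dnmt3b*, *Utf1* or *Pou3f1*, with a median of 28 over the 4 genes (2 to 100). Among 10024 genes with 100 or more UMIs in the pair, 346 (3.45%) were at least 2-fold higher in group 1 than in code 3 and 956 (9.54%) lower. All 12 naive genes of that depth were at least 2-fold lower, with a median ratio of 0.0787, and 5 of 11 epiblast genes were at least 2-fold higher and 0 lower. *Dnmt3b* was at 907 CPM in group 1 and 273 CPM in code 3 (3.32-fold, 3.17 to 3.48), while *Pou5f1* was at 477 CPM and 545 CPM, a ratio of 0.876 (0.833 to 0.921). The level of *Pou5f1* was thus within 1.5-fold between these cells, and *Dnmt3l* differed most among the methylation genes, at a ratio of 0.0403 (0.0271 to 0.0577). *Nodal* itself was at 57.0 CPM against 64.9 CPM and *Lefty1* at 434 CPM against 265 CPM.

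**Figure D4:**
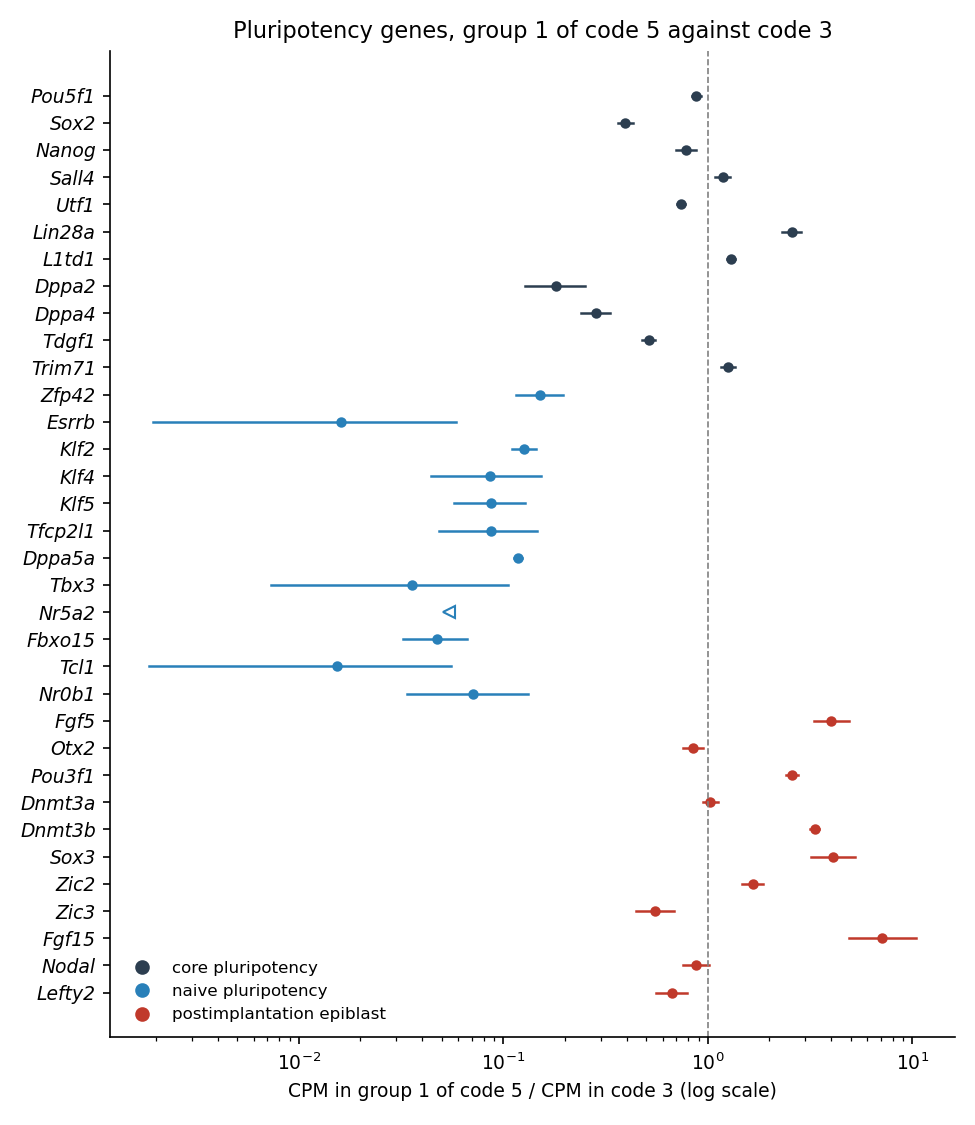
Ratio of CPM in group 1 of code 5 over code 3 (log scale) for core, naive and epiblast genes, with exact 95% conditional binomial intervals; the open triangle is an upper bound for *Nr5a2*, which had 0 UMIs in group 1. Naive genes lie between 0.0153 and 0.151, and 5 of 11 epiblast genes lie above 2.

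Group 2 had higher Nodal inhibitors and streak genes than group 1. *Lefty2*, a Nodal inhibitor, was at 166 CPM in group 2 and 39.0 CPM in group 1, and *Lefty1* at 668 CPM and 434 CPM. *Krt8*, a keratin of simple epithelia, was at 184.5 CPM and 36.2 CPM, and *Stra8*, a gene induced by retinoic acid in germ cells, at 276 CPM and 64.3 CPM. *Fgf8* was at 70.3 CPM and 34.8 CPM. *Foxa2*, a factor of endoderm and node, was at 26.4 CPM against 3.31 CPM, and at 52.6 CPM (35.7 to 74.6) in group 4. *Cer1*, a secreted antagonist of Nodal and BMP, was at 29.9 CPM in group 2 with 0 UMIs in group 1. *Pou5f1* was lower than in group 1, at 175 CPM (151 to 201). *Scx* was at 185 CPM against 20.8 CPM, while *Col1a1* was at 8.79 CPM against 8.99 CPM, so that *Scx* was higher in group 2 without the tendon collagen.

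The *T* UMIs lay in few cells of every group. *T* was found in 17 cells of code 5, and 5 cells held 73.4% of its 64 UMIs. By group, 8 UMIs lay in 7 cells of group 1, 26 in 5 cells of group 2, 25 in 4 cells of group 3 and 5 in 1 cell of group 4. Groups 1 to 4 held 4228271, 1138127, 724761 and 589583 UMIs of all genes, so that *T* was lower per UMI in group 1 than in groups 2 and 3. The 6 cells with 3 or more *T* UMIs included 0 called doublets, and 0 *T* UMIs lay in cells with a *Myog* UMI. *Gsc*, the organizer factor goosecoid, had 12 UMIs in group 2 and 12 in group 3, where all lay in cells without a *Myog* UMI.

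Group 4 had neural tube genes and little *Pou5f1*. *Pou5f1* was at 23.7 CPM from 14 UMIs, while *Sox2*, shared by pluripotent and neural cells, was at 354 CPM (308 to 406) against 147 CPM in group 1. *Sox1*, an early neural factor, was at 114 CPM against 17.0 CPM, *Pax6* at 44.1 CPM against 6.86 CPM, and *Nkx6-2* at 239 CPM against 4.02 CPM. *Hes5*, a Notch target of neural progenitors, had 21 UMIs in group 4 and 18 in all of group 1. *Crabp1* was at 1815 CPM (1708 to 1927) and *Crabp2* at 605 CPM, against 13.5 CPM and 44.2 CPM in group 1, so that the summed retinoic acid list was at 2702 CPM in group 4 and 302 CPM in group 1. *Hoxb2*, a hindbrain Hox gene, was at 164 CPM and *Hoxb1* at 49.2 CPM. Hedgehog receptor *Ptch1* was at 280 CPM against 80.9 CPM and *Id3* at 387 CPM against 86.1 CPM. *Tubb3* and *Elavl3*, genes of postmitotic neurons, were at 27.1 and 25.4 CPM, no higher than the 60.5 and 26.5 CPM of group 1, whereas *Elavl4*, another neuronal gene, was at 20.4 CPM (10.5 to 35.6) from 12 UMIs against 0.946 CPM (0.258 to 2.42).

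The 29 *Myog* cells spanned a wide range of muscle transcript counts. *Myog* ran from 1 to 58 UMIs per cell with a median of 5, *Actc1* from 0 to 170 with a median of 33, and *Ttn* from 0 to 113 with a median of 22. *Myod1* was found in 20 of the 29, the acetylcholine receptor subunit *Chrna1* in 22 and the fusogen *Mymk* in 22. *Pax7* was found in 5 and *Msc*, a factor of myogenic progenitors, in 4. Sarcomere and fusion transcripts were thus counted in most of the cells, and progenitor transcripts in few. A missing UMI does not show that a cell lacks the transcript. Cell cycle genes were lower than in the other code 5 cells: S phase genes summed to 1516 CPM against 8316 CPM there and 2204 CPM in code 1, and G2M genes to 5276 CPM against 12256 CPM there and 5189 CPM in code 1, so that the G2M sum was close to that of code 1, and *Top2a* was found in 8 of 29. *Cdkn1a* was found in all 29, at 1408 CPM, against 95.2 CPM in the other code 5 cells. *Cdkn1c*, the cell cycle inhibitor p57, was also found in all 29, with 6 to 240 UMIs per cell and a median of 54. This gene was chosen after its values had been seen. Its level in other cells is not given here, so its counts are not read as particular to the *Myog* cells.

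Genes of tendon were counted in the same cells. *Scx* was found in 19 of the 29 at 892 CPM (769 to 1028), against 20.8 CPM in group 1 and 2410 CPM in code 1, and *Col1a1* in 11 at 657 CPM, against 8.99 CPM and 2741 CPM. The summed tendon list was at 4886 CPM in these cells, 93.0 CPM in group 1 and 17164 CPM in code 1. Across genes, their profile was most like code 1 of the culture (r = 0.894), then code 2 (0.889) and code 4 (0.886), with tail code 5 at 0.886 and D6 PM code 4 at 0.884, while code 3 was at 0.823. By Spearman's rho, tail code 5 (0.8392) came next after code 1 (0.8405), before codes 4 (0.8354) and 2 (0.8346) of the culture. The part of free RNA or of doublets below the calling threshold in these tendon counts was not tested.

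In the tail, the same code held more *Myog* cells. There, 42 of 121 cells (34.7%, 26.3 to 43.9) had a *Myog* UMI, with 1 to 233 UMIs and a median of 63 per cell, and the median depth of these 42 cells was 22858 UMIs. In D6 PM, 61 of 700 cells of code 4 had one (8.71%, 6.73 to 11.1), with 1 to 46 UMIs and a median of 3 at 11147 UMIs. Depth differed between the libraries, so that these shares are given side by side. Outside these codes *Myog* was found in 4 culture cells, 25 tail cells and 23 D6 PM cells.

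Whole code 5 of the culture was far below whole code 5 of the tail for muscle and far above it for pluripotency. Of 10908 genes, 1459 (13.4%) were at least 2-fold higher in the culture and 2231 (20.5%) at least 2-fold lower. Most muscle genes passed the detection filter only through the tail, so their list is given as a sum over all members: sarcomere genes were at 1866 CPM in the culture and 14076 CPM in the tail, and regulators at 151 CPM and 3424 CPM. The core pluripotency list was at 2161 CPM and 79.9 CPM. *Pou5f1* was at 351.5 CPM against 3.23 CPM from 7 UMIs in the tail, and *Trh*, with 0 UMIs in the tail, was at least 370-fold higher. Hox genes summed to 121 CPM in the culture and 1117 CPM in the tail, with *Hoxc13*, a gene of tail level, at 135 CPM from 292 UMIs in tail cells, while culture cells had 0. Of 16 glycolysis genes 14 were at least 2-fold higher in the culture, among them *Ldha* at 2727 CPM against 835 CPM. Culture and tail were separate libraries of cultured and embryonic cells, and library and origin cannot be told apart.

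Restricted to cells with a *Myog* UMI, regulators such as *Myod1* and *Msc* were lower in the culture, while more sarcomere genes were higher than lower. Of 10422 genes 1664 (16%) were at least 2-fold higher in the culture cells and 1365 (13.1%) lower. Of 13 regulators 9 were at least 2-fold lower and 0 higher, but this count is partly set by the filter. *Eya1* and *Lbx1*, with 1 UMI each in the culture cells, passed it only through the tail. In all, 5 of the 9, with 1 to 6 UMIs each in the culture, had intervals that reached 1. *Myog*, 1 of the 9 and the gene by which the cells were chosen, was at 1155 CPM in the culture and 2916 CPM in the tail (0.396, 0.346 to 0.451). *Myod1* was at 380 CPM and 1316 CPM (0.289, 0.228 to 0.362), and *Msc* at 18.8 CPM and 119 CPM. *Pax7* and *Myf5*, with 6 and 3 UMIs in the culture, had ratios of 0.435 and 0.332, with upper bounds at or above 1. *Mef2c*, a MADS-box cofactor of the myogenic factors, was higher in the culture, at 793 CPM against 454 CPM (1.75-fold, 1.46 to 2.09), and *Mymk* was at 1.32-fold (0.989 to 1.74).

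Of 23 sarcomere genes 9 were at least 2-fold higher in the culture *Myog* cells and 1 lower, with a median ratio of 1.41. The actins *Acta1* and *Actc1* were at 3.11-fold (2.71 to 3.58) and 1.29-fold (1.21 to 1.38), the troponin *Tnnc1* at 3.81-fold (3.43 to 4.24), the embryonic light chain *Myl4* at 3.82-fold (3.37 to 4.32) and *Ttn* at 1.04-fold (0.968 to 1.13). These sums rested on few cells: the top 5 cells held 63.9% of the *Acta1* UMIs and 58.1% of the *Tnnc1* UMIs of culture code 5, and *Acta1* was found in 16 of the 29 *Myog* cells. *Myl1* was lower, at a ratio of 0.506 (0.431 to 0.592), the fast troponin *Tnnt3* was at 0.627 (0.403 to 0.940), and the perinatal myosin *Myh8* had 0 UMIs in the culture and 48.5 CPM in the tail, so that the ratio was at most 0.290. The higher genes included cardiac and slow isoforms (*Tnnc1*, *Tnni1*, *Myh7*) as well as fast ones (*Tnnc2*, *Tnni2*). Tendon genes were higher in the culture *Myog* cells, with *Col1a2* at 2.35-fold (1.85 to 2.98), *Scx* at 7.0-fold (5.56 to 8.84) and *Dcn* at 114-fold (51.0 to 315), while *Thbs4*, with 1 and 5 UMIs, was at 0.928 (0.0196 to 8.30). S phase genes were at least 2-fold lower for 27 of 42, and 13 of 17 glycolysis genes were at least 2-fold higher. A count over the Hox list is not read, because members with 0 UMIs in the culture passed the filter only through the tail. *Hoxa10*, *Hoxc9*, *Hoxc10* and *Hoxc13* had 30 to 63 UMIs in tail cells and 0 in culture cells, where 3 counts would be 14.1 CPM. *Hoxd9* had 1 UMI in tail cells and 6 in culture cells. The tail cells held 989000 UMIs in all and the culture cells 213052.

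**Figure D5:**
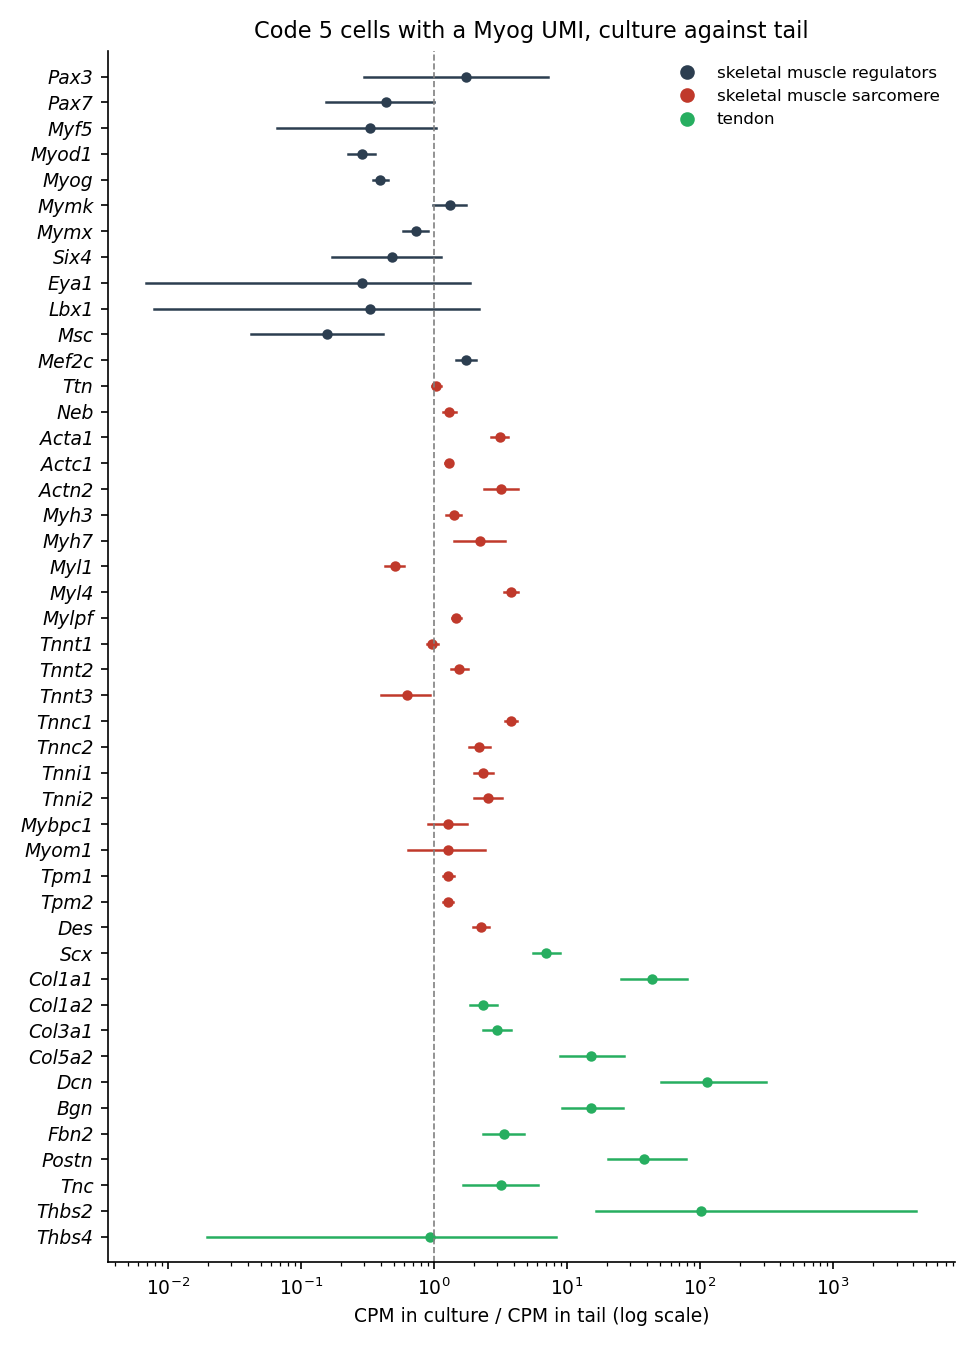
Ratio of CPM in the 29 culture cells over the 42 tail cells of code 5 with a *Myog* UMI (log scale), for regulators, sarcomere and tendon genes whose ratio has an interval (1 regulator is not shown), with exact 95% conditional binomial intervals. *Myod1* and *Myog* lie below 1, *Ttn* at 1.04, *Acta1* and *Tnnc1* above 3, and *Dcn* at 114.

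Against D6 PM, the code 5 profile was most like code 2 (r = 0.947) and then code 3 (0.941), with code 4 at 0.926. The naive gene *Dppa5a* was at 6302 CPM in D6 PM code 2, 4021 CPM in culture code 3 and 376 CPM in code 5. In the same order *Dnmt3b* was at 28.7, 273 and 674 CPM, *Pou3f1* at 15.03, 161 and 345 CPM, and *Fgf5* at 2.87, 14.4 and 44.2 CPM, while *Pou5f1* was at 460, 545 and 351.5 CPM. Code 5 thus had the lowest *Dppa5a* and the highest *Dnmt3b*, *Pou3f1* and *Fgf5* of these 3 clusters with *Pou5f1*. *Trh* and *Fgf5* were also found where *Pou5f1* was low: *Trh* was at 929 and 938 CPM and *Fgf5* at 79.7 and 60.4 CPM in codes 1 and 3 of D6 PM, whose *Pou5f1* was at 6.22 and 4.98 CPM, and *Fgf5* was at 53.7 CPM (*Pou5f1* 7.80 CPM) in culture code 8. The D6 and D10 libraries were 1 each, so that day and library cannot be told apart.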

How the data were processed

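Single-cell RNA-seq of the D10 culture, E14.5 tail and D6 PM was analysed, 1 library each, prepared with the 10x 3′ v3 kit. The deposited tables hold UMI counts, in whole numbers for each cell and gene, which the authors made with Cell Ranger. The authors dropped cells with over 7.5% mitochondrial transcripts and, at either end of the range of transcripts, 2% of cells, the high end as likely doublets. They clustered with Seurat 3.0, per the submitters' processing notes. Cluster codes are theirs. The genome build of these counts is not given in the sources used here, and no coordinates or sequences are printed.

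UMIs were summed per cluster and divided by the total of the same cells (Python 3.11.15, NumPy 2.4.6, SciPy 1.17.1). A gene was called by a fixed size, at least 2-fold in CPM among genes with a UMI in 10% of the cells of either group, without a p-value; for group 1 against code 3 the filter was 100 UMIs over both. Where a group had 0 UMIs, 3 counts over the group were used as a floor, a bound was called only in the direction it allows, and genes at or under 3 counts in both groups were not compared. Detection shares used cells thinned to 3000 UMIs. Groups within code 5 came from Scanpy 1.11.5 and leidenalg 0.10.2 (2000 variable genes, 20 components, 15 neighbors, resolution 0.5, seed 1). Scrublet ran at an expected rate of 6%, and called doublets were kept and left out only as an alternative. Figures used Matplotlib 3.10.9.

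Members, markers and gene lists were chosen with earlier results of these data known. Genes could be named if they were in these lists, were Hox genes, or ranked in the top 15 by ratio in either direction, once genes under 100 UMIs in the pair of groups or under 50 CPM on the high side were set aside. Results of a few genes are not reported here. The leading genes of groups within code 5 followed the same rule. The size rule was tried on simulated data for code 5 against code 3. It recovered 200 of 200 genes changed 4-fold, with 0 unchanged genes called among 9266 tested. A 4-fold change lies well past the 2-fold cut, so this run cannot show how the rule does near the cut. The run is not read as support for calls in the real data, some of which rest on few cells. Alternatives varied doublets, shallow cells, the definition of CPM, the detection filter, the fold, the thinning depth and the clustering. Leaving out or keeping only the cells with a *Myog* UMI was chosen after seeing the data.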

Additional observations from a re-analysis of the deposited data

How the results depend on the processing

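Of 82 alternative values, 60 stayed within 1.5 times for counts or within the counting interval for values, 21 moved and 1 reversed. Without the code 5 cells with a *Myog* UMI, the *Ttn* ratio over the rest of the culture turned from 18.0 to 0.298, because the cells that hold the transcript were left out. The rest of the culture includes code 3, at 26.8 CPM of *Ttn*, while codes 1, 2 and 4 were at 0.301, 0.654 and 0.301 CPM. The turn is therefore not one against each other cluster. As a mean over cells of CPM in place of summed counts, the ratio was 52.6 for *Ttn*, 2.69 for *Pou5f1* and 1186 for *Myog* (430 with summed counts). At 3-fold in place of 2-fold, 228 genes were higher and 693 lower than in the rest of the culture, 240 and 360 against code 3, and 778 and 1320 against tail code 5, so that the share of higher calls against the rest went from 39.2% to 24.8%. With detection in 5% of cells, 931 genes were higher than in code 3. With only *Myog* cells in both libraries, 1664 genes were higher and 1365 lower than in the tail (54.9% higher, against 39.5% with all cells), of which 359 and 385 were shared with the comparison of all cells. The share of cells with a *Pou5f1* UMI was 66.5% at 5000 UMIs and 71.2% without thinning. Resolution 1 gave 8 groups in place of 4. Resolution 0.2 gave 3, with most cells from groups 1, 3 and 4 in turn, so that group 2 did not form a group of its own. Over 1811 of the culture's most variable genes, r was 0.894 with culture code 3, 0.816 and 0.801 with codes 2 and 4 of D6 PM and 0.719 with tail code 5, with code 4 and not code 3 of D6 PM in second place, and Spearman's rho over all genes was 0.937, 0.911, 0.891 and 0.866, for the same clusters in turn. No paired analysis was possible because each group was 1 library. Counting error limits genes under about 10 UMIs, and the precision of biological replicates is unknown.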
